A study of Mus musculus with 2 samples.

Results

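The acetylcholine receptor of the muscle fibre and the proteins that gather it under the nerve terminal were described through 10 genes of the 21911 protein-coding genes annotated by GENCODE M21 on mouse build mm10. They were named for their role at the neuromuscular junction. The rule uses no measured value, although the set was proposed with earlier results of these data known. The set holds the receptor subunit genes Chrna1, Chrnb1, Chrnd, Chrng and Chrne, the assembly genes Musk, Lrp4, Dok7 and Rapsn, and the transcription factor gene Etv5. DNase-seq, in which the enzyme DNase I cuts accessible DNA and the cut ends are sequenced, had been applied to whole gastrocnemius, a calf muscle, of male B6CASTF1/J mice aged 14 days. B6CASTF1/J animals are hybrids of the C57BL/6 and CAST strains and carried no engineered allele or treatment in the labels. The series had 1 group of 2 biological replicates, so no condition was compared. Both libraries name the same donor entry, replicate 1 was sequenced on 2 instrument models, and the number of animals behind each library is not stated. Values are given for replicate 1 and then replicate 2, ± is the SD over these 2 libraries, and no test was run because 2 libraries of 1 group cannot give a small p.

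At the junction, agrin released by the motor nerve binds Lrp4 on the fibre, and Lrp4 switches on the receptor tyrosine kinase MuSK. Dok7 binds MuSK inside the fibre and raises its activity, and rapsyn, the product of Rapsn, ties the acetylcholine receptors into clusters. The receptor of fetal muscle holds the gamma subunit (Chrng), which is replaced by the epsilon subunit (Chrne) in the weeks around and after birth, while the alpha, beta and delta subunits (Chrna1, Chrnb1, Chrnd) belong to both forms. Receptor genes are read mainly by the few fibre nuclei that lie beneath the synapse, and Etv5, an ETS family factor also known as Erm, is concentrated in those nuclei in the mouse. In receptor promoters the E-box form CAGCTG is a known site of the MyoD family, and the N-box with the core CCGGAA is a known site of ETS factors.

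The tissue label was checked against marker genes. All 10 muscle fibre markers had a promoter peak in both libraries, as had 3 of 3 fibroblast, 2 of 3 endothelium, 1 of 3 leukocyte, 3 of 5 Schwann cell and 1 of 5 motor neuron markers, and none of 3 liver markers, beside 61.7% of all protein-coding genes. Open promoters of other cell types of the muscle were thus present in the same libraries. The motor neuron genes Chat, Slc18a3 and Slc5a7 had no promoter peak in either library. Of the same list, Mnx1 had a promoter peak in replicate 2 alone and Isl1 in both libraries. Each library came with 2 peak lists, a strict list of 82498 and 88198 peaks and a permissive list of 138117 and 139545 peaks. The deposited signal of a peak measures DNase cutting there, on a scale for which the sources used here give no definition. Over the 63851 regions found in both strict lists, replicate 1 exceeded replicate 2 by a median factor of 1.55, so signals were compared within a library or as percentiles. In whole muscle a lower signal can come from fewer open nuclei or from less cutting in each nucleus, and these cannot be told apart.

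Of the 10 genes, 7 had a strict peak within 1 kb of an annotated start in both libraries, a share of 70% beside 61.7% of all protein-coding genes. In the permissive lists all 10 had one in both libraries, beside 65.7% of all protein-coding genes. Taken alone, replicate 1 held strict promoter peaks for 9 of the genes and replicate 2 for 8. The genes without a strict peak in both libraries were all receptor subunit genes, namely Chrna1, Chrng and Chrne. When all protein-coding genes were ranked by their strongest promoter peak, with the genes lacking a peak tied at percentile 18.3, the median of the 10 mean percentiles was 49.6, beside 50.1 over all genes. The median rank of the set thus lay near that of all genes, while its members ran from percentile 29.0 (Chrng) to 97.4 (Etv5).

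**Figure D1:**
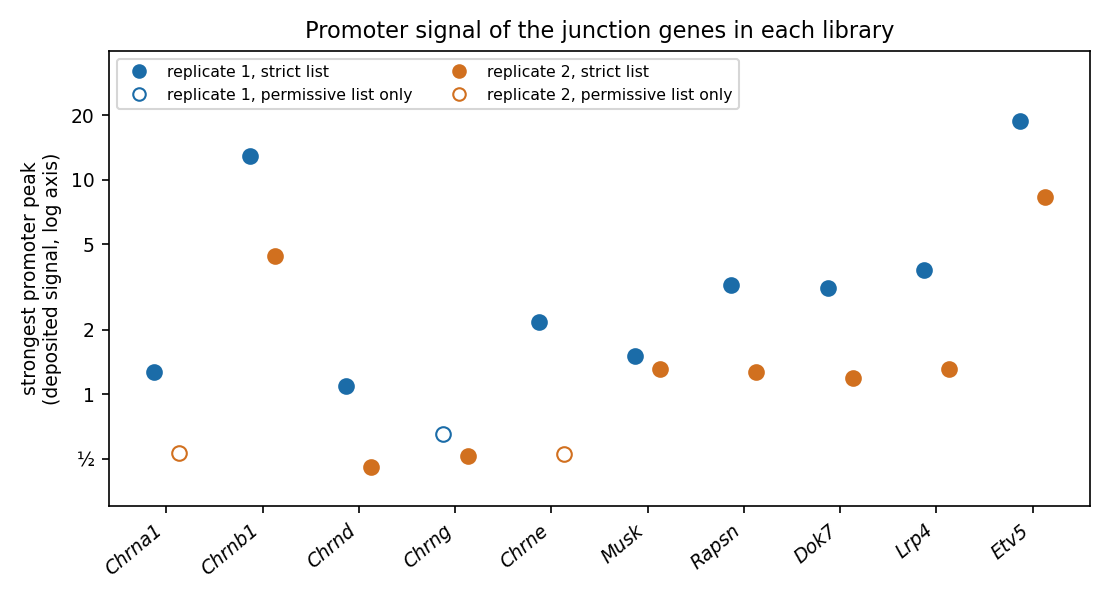
Strongest promoter peak of each gene (y axis, deposited signal, log axis) in replicate 1 (blue) and replicate 2 (orange); filled points are strict peaks and open points are peaks found only in the permissive list. Etv5 (18.7 and 8.32) and Chrnb1 (12.9 and 4.39) stand above the other 8 genes in both libraries, and the open points belong to Chrna1, Chrng and Chrne. The Chrnb1 points are its intron peak, centred 443 and 463 bases downstream of the start.

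Among the subunits shared by the fetal and adult receptor, Chrnb1 was the most open. Chrnb1 (ENSMUSG00000041189.9, chr11:69784036-69795943, minus strand) had promoter signals of 12.9 and 4.39 and a mean percentile of 83.6 ± 9.93 (SD, n = 2), which was 51.3 with a window of 250 bases. This strongest peak was centred not on the start but in an intron, 443 and 463 bases downstream of it. A weaker peak lay closer to the start, centred 13 and 143 bases downstream, with signals of 2.04 and 1.23. Both libraries therefore put the main open site of Chrnb1 inside the gene. The merged intron peak, shown because its footprints recurred in both libraries, is given on the gene's strand (chr11:69795361-69795600, mm10, minus strand) with the bases under footprints of both libraries in capitals.
Chrnb1 intron peak: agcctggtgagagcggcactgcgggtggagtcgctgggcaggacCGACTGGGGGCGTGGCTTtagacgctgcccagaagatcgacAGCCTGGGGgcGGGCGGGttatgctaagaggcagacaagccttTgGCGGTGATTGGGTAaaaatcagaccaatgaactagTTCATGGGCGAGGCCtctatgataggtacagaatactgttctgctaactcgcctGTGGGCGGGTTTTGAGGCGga
A footprint is a short stretch within an open site that was cut less than its surroundings, here as called by the authors. Of the 240 bases of this peak, 103 and 113 lay under footprints of the 2 libraries, and 83 lay under footprints of both, in 7 stretches. The peak held 3 matches of the GC box GGGCGG, the motif bound by Sp factors. Of these, 2 lay wholly and the other, which overlaps its neighbour, with 4 of its 6 bases in the stretches shared by both libraries. No E-box and no CCGGAA match was found in it.

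Chrnd, which encodes the delta subunit (ENSMUSG00000026251.13, chr1:87190637-87200070, plus strand), had a small promoter peak in both libraries. Its signals were 1.10 and 0.459, with the peak centred at positions -50 and -23 relative to the nearest start, where negative positions are upstream. Its mean percentile was 40.8 ± 2.48 (SD, n = 2), the lowest of the 7 genes with a strict peak in both libraries. Chrnd lost its peak in both libraries, and fell to percentile 22.1, when peaks weaker than their library's median were dropped. The deposited FDR track, which lists each base whose cutting passes an FDR of 0.05, listed 295 and 281 bases in the promoter window of Chrnd, beside medians of 625 and 718 over all protein-coding genes. Both libraries thus showed the same short site at the start of Chrnd, but none of the footprints in it overlapped between them.

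Chrna1, the gene of the agonist-binding alpha subunit (ENSMUSG00000027107.3, chr2:73563215-73580338, minus strand), passed the strict list in replicate 1 alone. There it had a peak at the start, centred at position -22, with a signal of 1.27, and a peak 938 bases downstream with a signal of 1.05. In replicate 2 the same sites appeared only in the permissive list, with signals of 0.468 and 0.532. The bases listed in the FDR track numbered 477 and 297. The lowest FDR was 7.7e-10 in replicate 1, at position -11, and 0.0017 in replicate 2, at position 941. Within the peak at the start, the lowest FDR of replicate 2 was 0.0079. The 2 libraries placed the sites alike and differed in strength. The site at the start had the higher signal in replicate 1, and the downstream site had it in replicate 2. The RefSeq promoter of Chrna1, from 250 bases before to 50 bases after the start, is printed 5′ to 3′ for its E-boxes (chr2:73580289-73580588, mm10, minus strand), with all CANNTG matches in capitals.
Chrna1 promoter: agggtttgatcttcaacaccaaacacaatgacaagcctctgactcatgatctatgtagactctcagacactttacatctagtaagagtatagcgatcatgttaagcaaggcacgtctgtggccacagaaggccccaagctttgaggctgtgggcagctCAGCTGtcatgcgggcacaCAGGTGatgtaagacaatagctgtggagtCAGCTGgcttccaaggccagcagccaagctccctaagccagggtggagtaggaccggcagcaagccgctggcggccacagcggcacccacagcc
Its E-boxes were CAGCTG at bases 159 to 164 and 207 to 212 of this sequence and CAGGTG at bases 178 to 183. A footprint of 12 bases, ggccagcagcca, lay at bases 221 to 232 in replicate 1 and at bases 222 to 233 in replicate 2, between the last E-box and the start. The CAGCTG nearest to the start had 3 of its bases under a footprint in replicate 1 and none in replicate 2.

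The comparison of the fetal gamma with the adult epsilon subunit turned on weak sites that differed between the libraries. Chrng (ENSMUSG00000026253.14, chr1:87205811-87212694, plus strand) had no strict promoter peak in replicate 1 and a peak with a signal of 0.514 in replicate 2. That peak was centred 719 bases downstream of the start, in an intron. In the permissive list replicate 1 had a Chrng peak of 52 bases at position -146, with a signal of 0.652. The Chrng peaks of the 2 libraries thus lay at different places and did not overlap.

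Chrne (ENSMUSG00000014609.16, chr11:70614883-70619216, minus strand) had a strict peak with a signal of 2.18 in replicate 1, centred at position -104, and no strict peak in replicate 2. The permissive list of replicate 2 held a Chrne peak with a signal of 0.528 at position -127. The Chrne peaks therefore overlapped between the libraries, just upstream of the start. The mean percentiles were 29.0 ± 15.2 for Chrng and 34.0 ± 22.2 for Chrne (SD, n = 2). In replicate 1 Chrng stood at 18.3, the tied value for no strict peak, and Chrne at 49.7. In replicate 2 Chrng stood at 39.8 and Chrne at that tied value. The order of the genes by percentile was thus opposite in the 2 libraries.

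Since each gene had its strict peak in a different library, no ratio of strict signals was formed. The permissive signals gave a log2 ratio of Chrng to Chrne of -1.74 in replicate 1 and -0.04 in replicate 2, with a mean of -0.89 ± 1.20 (SD, n = 2). The FDR track listed 52 and 234 bases for Chrng and 320 and 201 bases for Chrne. Chrng minus Chrne was thus -268 bases in replicate 1 and 33 bases in replicate 2. The lowest FDR at Chrng was 0.027 in replicate 1 and 4.0e-06 in replicate 2, and at Chrne it was 2.9e-11 in replicate 1 and 0.00039 in replicate 2. The order of the 2 genes by listed bases within 1 kb was thus opposite in the 2 libraries, and the mean log2 ratio lay within its SD of 0. The result depended on the window, because the Chrng bases of replicate 2 lay inside the gene. Within 250 bases of the start, Chrng had 52 and 0 listed bases and Chrne 320 and 201, so Chrne was higher in both libraries, by a mean difference of -234.5 bases for Chrng minus Chrne. Within 2500 bases that difference was -150 in replicate 1 and 133 in replicate 2, with a mean of -8.5. Within 250 bases neither library had a strict peak at Chrng, while replicate 1 kept that of Chrne.

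**Figure D2:**
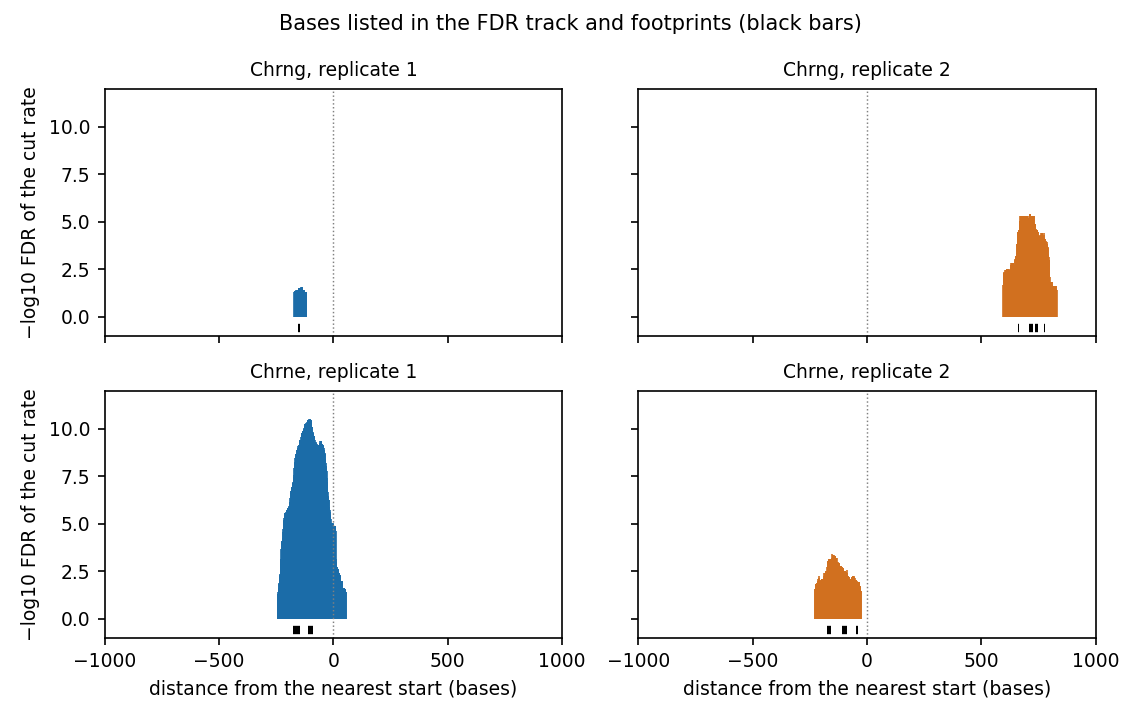
Bases listed in the FDR track within 1 kb of the start of Chrng (top) and Chrne (bottom) in replicate 1 (left) and replicate 2 (right), as -log10 FDR of the cut rate (y axis) against distance from the nearest start in bases (x axis), with footprints as black bars below 0. The Chrne sites of both libraries lie just upstream of the start, whereas Chrng has 52 bases upstream in replicate 1 and 234 bases inside the gene in replicate 2.

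The promoters of both genes are printed for their E-boxes and, in Chrne alone, the N-box core, in capitals (chr1:87205561-87205860, plus strand, for Chrng and chr11:70619145-70619444, minus strand, for Chrne, RefSeq, mm10).
Chrng promoter: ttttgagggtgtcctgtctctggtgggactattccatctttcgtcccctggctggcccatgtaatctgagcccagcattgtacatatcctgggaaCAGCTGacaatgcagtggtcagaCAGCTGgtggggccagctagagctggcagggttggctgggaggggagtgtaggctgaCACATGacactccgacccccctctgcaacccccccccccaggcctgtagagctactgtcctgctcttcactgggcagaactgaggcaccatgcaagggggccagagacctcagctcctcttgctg
Chrne promoter: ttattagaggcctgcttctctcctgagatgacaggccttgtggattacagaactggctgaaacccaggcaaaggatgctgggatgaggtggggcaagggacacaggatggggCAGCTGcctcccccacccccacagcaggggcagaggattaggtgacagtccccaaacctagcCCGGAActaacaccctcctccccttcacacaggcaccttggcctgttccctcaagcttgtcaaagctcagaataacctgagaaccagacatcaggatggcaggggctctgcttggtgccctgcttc
Both sequences were poor in CpG. Chrng had 2 CpG dinucleotides, an observed to expected CpG ratio of 0.0758, and Chrne had 1, a ratio of 0.0407, beside a median ratio of 0.588 over 20150 coding promoters. These ratios lay at percentiles 7.34 and 4.47 of those promoters. Chrng held CAGCTG at bases 96 to 101 and at bases 119 to 124, and CACATG at bases 176 to 181. The only footprint in the printed stretch of Chrng, of 7 bases in replicate 1, covered 4 of the 6 bases of the CAGCTG farther from the start.

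In Chrne the E-box CAGCTG stood at bases 113 to 118 and the N-box core CCGGAA at bases 175 to 180. Directly downstream of the E-box lay a C-rich footprint, tgcctcccccacccccacagca at bases 117 to 138 in replicate 1 and gcctcccccacccccacagcaggg at bases 118 to 141 in replicate 2. The libraries shared 21 bases of it, and it covered 2 bases and 1 base of the E-box. A further footprint farther from the start shared 17 bases between the libraries, tggctgaaacccaggcaaag in replicate 1. The CCGGAA match lay under no footprint in either library. The nearest footprint to it, of 7 bases at bases 183 to 189, was called in replicate 2 alone.

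Of the assembly genes, all 4 had a strict promoter peak at the start in both libraries. Lrp4, the agrin receptor (ENSMUSG00000027253.15, chr2:91457511-91513779, plus strand), had signals of 3.81 and 1.31 and a mean percentile of 54.0 ± 6.16 (SD, n = 2). Rapsn, the gene of the clustering protein rapsyn (ENSMUSG00000002104.11, chr2:91035620-91045729, plus strand), had signals of 3.23 and 1.27 and a mean percentile of 52.3 ± 4.35. Dok7, the cytoplasmic activator of MuSK (ENSMUSG00000044716.12, chr5:35056766-35087839, plus strand), had signals of 3.12 and 1.19 and a mean percentile of 51.6 ± 4.54. Musk, the kinase itself (ENSMUSG00000057280.15, chr4:58285960-58374303, plus strand), had signals of 1.51 and 1.31 and a mean percentile of 47.6 ± 2.84. Within each library Lrp4 stood above Rapsn and Rapsn above Dok7, at percentiles 58.4, 55.4 and 54.8 in replicate 1 and 49.7, 49.2 and 48.4 in replicate 2. Musk was the lowest of the 4 in replicate 1 at percentile 45.6 and stood between Lrp4 and Rapsn in replicate 2 at 49.6.

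The promoter peaks of Lrp4, Rapsn and Musk were centred at positions between -60 and -30 in both libraries. Dok7 has 3 annotated starts, and its peak was centred at positions -12 and -16, each counted from a different start. The Dok7 peaks overlapped but were not centred alike, spanning chr5:35056681-35057020 in replicate 1 and chr5:35056601-35056900 in replicate 2. Lrp4 had a second site 923 and 944 bases into the gene with signals of 1.62 and 0.784, and Dok7 had one 183 and 202 bases downstream of a start with signals of 2.44 and 0.936. Musk differed from the other 3 in how its libraries compared. Its ratio of replicate 1 to replicate 2 was 1.16, the lowest of the 7 genes with both values. The median of these 7 ratios, taken at each gene's strongest promoter peak, was 2.54. The median over all shared promoter regions, weaker ones of a gene included, was 1.75, so the 2 medians are not alike in measure. In the FDR track Musk had 264 and 931 listed bases, and replicate 2 also held a strict peak 894 bases into the gene with a signal of 0.50. More of the Musk window was thus listed in replicate 2, and its site at the start stood at percentile 57.8 of the strict peaks in replicate 1 and 67.3 in replicate 2.

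The Musk promoter is printed for its E-box under footprints of both libraries, with CANNTG matches in capitals (chr4:58285712-58286011, plus strand, RefSeq, mm10).
Musk promoter: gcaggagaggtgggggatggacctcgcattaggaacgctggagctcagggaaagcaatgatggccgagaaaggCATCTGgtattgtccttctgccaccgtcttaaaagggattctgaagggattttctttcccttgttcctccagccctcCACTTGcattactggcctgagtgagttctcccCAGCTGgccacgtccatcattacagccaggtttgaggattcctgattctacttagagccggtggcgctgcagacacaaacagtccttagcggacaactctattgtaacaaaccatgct
The CAGCTG at bases 183 to 188 lay wholly under a footprint of replicate 2, cccagctggccacgtccatca, and with 4 of its bases under a footprint of replicate 1, gctggccacgtccat. The 2 footprints shared 15 bases. CATCTG at bases 74 to 79 and CACTTG at bases 151 to 156 lay under none. Dok7 had no CAGCTG in its printed-length promoter and held 2 matches of the GC box, both touched by footprints in each library. The footprints on the GC box nearest to the start shared 7 bases, tgccccg.

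Etv5, the ETS factor of synaptic nuclei, was by signal the most open of the 10 genes. Etv5 (ENSMUSG00000013089.15, chr16:22381309-22439719, minus strand) had promoter signals of 18.7 and 8.32 and a mean percentile of 97.4 ± 0.992 (SD, n = 2). In this set the gene next in order was Chrnb1, whose higher library reached percentile 90.6, below the lower library of Etv5 at 96.7. That place rested on the Chrnb1 intron peak. With a window of 250 bases Chrnb1 stood at a mean percentile of 51.3, below Lrp4 (56.3), Rapsn (54.6) and Dok7 (54.0). Etv5 stayed first, at 97.6. The FDR track listed 1869 and 2001 bases in the promoter windows of Etv5, which span 4002 bases because its starts lie far apart. The lowest FDR was 4.0e-236 in replicate 1 and 2.5e-175 in replicate 2. Weaker sites flanked the main peak in both libraries, at position -741 with signals of 1.20 and 0.807 and 754 and 730 bases into the gene with signals of 0.479 and 0.353.

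The Etv5 promoter was rich in CpG, with 37 CpG dinucleotides, a ratio of 0.938 and percentile 86.3, and is printed beside the CpG-poor promoters of Chrng and Chrne (chr16:22439521-22439820, minus strand, RefSeq, mm10, CANNTG matches in capitals).
Etv5 promoter: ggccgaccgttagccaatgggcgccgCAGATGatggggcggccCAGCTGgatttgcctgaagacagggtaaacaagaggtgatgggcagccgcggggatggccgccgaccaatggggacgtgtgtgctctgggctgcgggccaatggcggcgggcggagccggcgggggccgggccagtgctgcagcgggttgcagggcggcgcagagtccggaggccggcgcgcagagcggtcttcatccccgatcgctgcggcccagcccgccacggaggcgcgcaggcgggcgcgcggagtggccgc
Its CAGCTG at bases 44 to 49 lay wholly under footprints of both libraries, ggcccagctgga in replicate 1 and ggcccagctggatt in replicate 2. A footprint closer to the RefSeq start covered bases 127 to 151 in replicate 1 and bases 127 to 150 in replicate 2, ctctgggctgcgggccaatggcgg being the shared stretch. In replicate 1 it lay 25 to 49 bases downstream of the nearest GENCODE start. The letters ccaat in this footprint match the CCAAT box, the known site of the NF-Y complex. That motif was not among those searched, so no share of coding promoters is given for it. Another ccaat stood in the footprints at bases 90 to 114 in replicate 1 and 79 to 114 in replicate 2. A further ccaat stood in a footprint of replicate 1 alone, at bases 9 to 33. Of the other subunit genes, Chrnb1 had 17 CpG dinucleotides, a ratio of 0.631 at percentile 53.3, and Chrna1 had 7, a ratio of 0.312 at percentile 31.5. The RefSeq start used for the Etv5 sequence lies 149 bases from the nearest GENCODE start.

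Promoter sequences were matched for 7 of the 10 genes, all but Chrnd, Rapsn and Lrp4. A CANNTG match stood in all 7, beside 68.7% of all coding promoters. In these 7 sequences CAGCTG, searched on both strands, occurred 7 times in 5 genes, Chrna1, Chrng, Chrne, Musk and Etv5, beside 15.7% of all 20150 coding promoters that held it. Of the 7 matches, 5 lay at least partly under a footprint in replicate 1, 3 in replicate 2 and 3 in both, those of Chrne, Musk and Etv5. Over all coding promoters, 13.5% and 14.2% of 3533 CAGCTG matches lay under footprints in the 2 libraries and 8.86% in both. These shares include promoters without a peak, so they are not matched to the 7 sequences for openness. An overlap of 1 base was enough in both counts. CCGGAA occurred once, in Chrne, beside 19.2% of coding promoters. Of 5168 CCGGAA matches in coding promoters, 31.1% lay under footprints of both libraries. CACCTG or CAGGTG was found in 2 of the 7 genes, Chrna1 and Chrnb1, GGGCGG in 3, Chrnb1, Dok7 and Etv5, and the M-CAT motif CATTCC in Chrnb1 alone, beside 19.7%, 47.8% and 13.4% of coding promoters. These matches describe the letters in the windows and not the binding of a factor.

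Within 1 kb of the starts of the 10 genes, 54 and 71 footprints were called. Of these, 36 in replicate 1 (66.7%) and 37 in replicate 2 (52.1%) overlapped a footprint of the other library by at least 1 base. Over all footprints within 1 kb of coding starts the shares were 65.5% of 99593 and 57.0% of 115154. The recurrence of footprints at the junction genes was thus close to that at all genes. Chrnd had 2 and 2 footprints and Chrng 1 and 4, the fewest over both libraries, and Lrp4 had 7 and 17 and Etv5 11 and 10.

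Outside all promoter windows, 33 regions within 50 kb of the 10 genes were open in both libraries. Each gene had between 2 and 6 of them, with a median of 3, beside a median of 2 and quartiles of 0 and 4 over all protein-coding genes. Chrnd and Chrng, which are neighbours on chromosome 1, had 6 each and shared 5 of them. Rapsn and Dok7 had 5 each, Chrna1, Chrnb1, Chrne and Musk had 3 each, and Lrp4 and Etv5 had 2 each. Of the 33, 8 lay inside the body of a gene of the set and 25 outside. A further 39 regions were found in replicate 1 alone, with a median signal of 0.446, and 16 in replicate 2 alone, with a median signal of 0.633. The regions of replicate 1 alone were most numerous around Chrne (11), Dok7 (10) and Chrnb1 (9). Those around Chrne lay 31.4 to 42.3 kb upstream of its start, nearly all inside the genes Rnf167, Pfn1 or Eno3. Most of those around Dok7 lay inside the gene Lrpap1, and most of those around Chrnb1 inside Zbtb4. Over the 33 regions the signal of replicate 1 was a median of 1.55 times that of replicate 2, with a range from 0.424 to 3.22, beside 1.42 over all 41807 shared regions outside promoters.

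**Figure D3:**
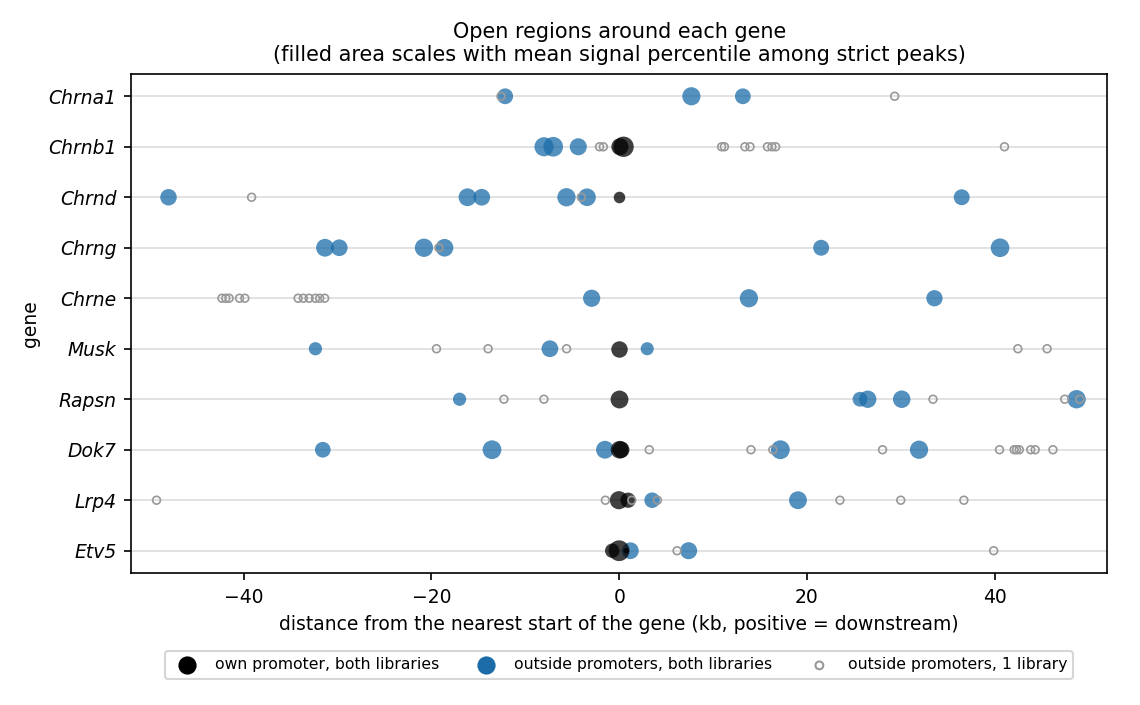
Open regions of the strict lists around each gene (rows) by distance from its nearest start in kb (x axis, positive in the direction of transcription). Black points are shared regions in the gene's own promoter window. Blue points are the 33 shared regions outside all promoter windows (those near both Chrnd and Chrng drawn in each row). Grey rings are regions of 1 library outside all promoter windows. Promoter peaks of 1 library and promoters of other genes are not drawn. Chrna1, Chrng and Chrne have no black point but 3, 6 and 3 blue points.

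The strongest region of a gene is here the shared region whose signal ranks highest among strict peaks, by percentile averaged over the libraries. The 3 subunit genes without a strict promoter peak in both libraries each had shared regions farther away. Chrna1 had regions in its introns 7.69 kb and 13.2 kb downstream of the start, with signals of 2.36 and 2.00 for the nearer one and 1.02 and 1.78 for the other. The nearer Chrna1 region exceeded the gene's own promoter peak in both libraries. The promoter of Chrna1os, a noncoding gene next to Chrna1, was also open in both libraries, 4.43 kb upstream of the Chrna1 start, with signals of 2.68 and 2.23. Chrne had a region 2.93 kb upstream with signals of 2.29 and 1.17, and its strongest, 13.8 kb downstream inside the gene Mink1, had signals of 2.01 and 2.63. In replicate 1 that Mink1 region was the weakest of the 3 shared by Chrne, the third being 33.6 kb downstream with signals of 2.53 and 0.784. The strongest region of Chrng lay 40.6 kb downstream of its start, in no annotated gene, with signals of 2.37 and 2.90. Which gene any of these regions acts on was not measured.

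The middle 200 bases of 3 of these regions are printed on the plus strand for the E-boxes they hold, in capitals (Chrna1, chr2:73572551-73572750, Chrne, chr11:70605281-70605480, and Chrng, chr1:87246271-87246470, mm10).
Chrna1 intron region: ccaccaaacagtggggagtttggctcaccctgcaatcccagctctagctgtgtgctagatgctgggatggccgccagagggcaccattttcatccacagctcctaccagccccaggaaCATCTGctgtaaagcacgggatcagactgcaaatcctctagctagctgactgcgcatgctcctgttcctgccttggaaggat
Chrne downstream region: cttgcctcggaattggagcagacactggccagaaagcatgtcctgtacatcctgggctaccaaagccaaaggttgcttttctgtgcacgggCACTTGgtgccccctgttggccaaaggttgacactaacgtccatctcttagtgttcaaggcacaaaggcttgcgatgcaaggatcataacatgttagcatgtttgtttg
Chrng downstream region: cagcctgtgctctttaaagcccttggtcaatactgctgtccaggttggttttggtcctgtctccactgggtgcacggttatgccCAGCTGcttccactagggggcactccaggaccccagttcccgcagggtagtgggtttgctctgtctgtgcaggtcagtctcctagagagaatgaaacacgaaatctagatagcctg
The region downstream of Chrng held CAGCTG, and those of Chrna1 and Chrne held CATCTG and CACTTG. Such matches are common, since CANNTG stood in the middle 200 bases of 26 of the 33 shared regions (78.8%). Its share over all 41807 shared regions outside promoters was 75.7%. In all 3 the ratio of replicate 1 to replicate 2 was below the median of shared regions outside promoters, at 1.18, 0.764 and 0.816 for Chrna1, Chrne and Chrng.

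For Chrnb1 the strongest shared region lay 7.03 kb upstream, in no annotated gene, with signals of 5.98 and 3.06, and a further one 8.01 kb upstream inside Tmem102 had signals of 4.36 and 2.29. Both stood below the Chrnb1 intron peak in replicate 1 and in replicate 2. The strongest region of Chrnd lay 5.62 kb upstream inside Prss56, with signals of 2.32 and 2.20, above the signals of the Chrnd promoter itself. Another in Prss56, 3.43 kb upstream, had signals of 1.85 and 1.90. Like the Chrng region, these sites near Chrnd had close to equal signals in the 2 libraries, with ratios of 1.06 and 0.971, whereas the Chrnd promoter had a ratio of 2.39.

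Among the assembly genes, Dok7 had the region with the highest mean percentile, 81.7, in an intron 17.2 kb downstream of its start, with signals of 5.35 and 1.67. In replicate 1 this was above the Dok7 promoter peak, and in replicate 2 as well. A region 13.5 kb upstream, inside Hgfac, had a mean percentile of 81.0 with signals of 2.29 and 3.41, and one 31.9 kb downstream had signals of 2.40 and 2.09, so the intron region led in replicate 1 only. The strongest region of Rapsn lay 48.7 kb downstream with signals of 3.73 and 1.49, and that of Lrp4 in an intron 19.0 kb downstream with signals of 2.54 and 1.50. For Musk it lay 7.38 kb upstream with signals of 1.84 and 1.18, and for Etv5 in an intron 7.39 kb downstream with signals of 2.01 and 1.23. In replicate 2 a Musk region 32.4 kb upstream was higher, with signals of 0.580 and 1.37. The Etv5 region was far below the Etv5 promoter, while the Musk region was above the promoter in replicate 1 and below it in replicate 2. The middle of the Dok7 intron region is printed as the strongest site outside promoters in replicate 1 after that of Chrnb1 (chr5:35074141-35074340, plus strand, mm10, CANNTG in capitals).
Dok7 intron region: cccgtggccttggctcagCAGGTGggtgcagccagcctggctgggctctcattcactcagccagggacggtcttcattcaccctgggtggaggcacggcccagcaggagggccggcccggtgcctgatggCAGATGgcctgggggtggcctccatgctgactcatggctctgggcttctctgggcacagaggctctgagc
It held CAGGTG and CAGATG and no CAGCTG. In the middle 200 bases of the 33 shared regions, CAGCTG was found in 11 (33.3%), beside 28.0% of all 41807 shared regions outside promoters. CACCTG or CAGGTG was found in 9 (27.3%), beside 14.7%, and CCGGAA in 5 (15.2%), beside 4.30%. The GC box was found in 4 (12.1%), beside 10.7%, and CATTCC in 5 (15.2%), beside 13.3%. With 33 regions, of which 5 are shared between neighbours, these shares are descriptions.

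**Figure D4:**
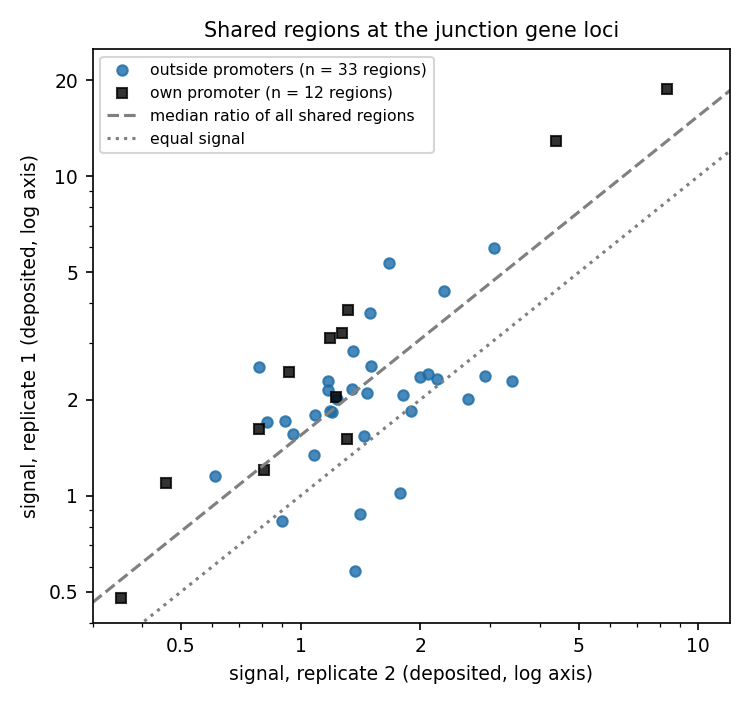
Signal in replicate 1 (y axis) against replicate 2 (x axis), both deposited values on log axes, for the 33 shared regions outside promoters (circles) and the 12 shared regions in the genes' own promoter windows (squares); the dashed line marks the median ratio of all shared regions, 1.55, and the dotted line equal signal. Most squares lie above the dashed line, and the circles scatter on both sides of it, down to a ratio of 0.424.

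The other genes of the junction were taken from a list of 69 genes in 7 roles. Of these, 55 (79.7%) had a strict promoter peak in both libraries, beside 61.7% of all protein-coding genes, 7 in 1 library and 7 in neither. All 10 genes of agrin and the synaptic matrix were open in both, led by Hspg2 (perlecan, signals of 11.7 and 6.95) and Nid2 (nidogen-2, 7.89 and 4.21). So were all 8 genes of neuregulin signalling and its ETS factors, led by Gabpa (7.44 and 2.99) and Gabpb1 (4.09 and 3.17), the subunits of the N-box factor GABP. Of the 16 genes of the MuSK pathway inside the fibre, 15 were open in both, led by the small GTPase gene Cdc42 (18.1 and 7.00) and the adaptor gene Crk (17.1 and 6.69), and Macf1 in replicate 2 alone (0.431). The median of the mean percentiles in this role was 83.8, beside 47.6 for Musk itself.

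All 9 genes of the postsynaptic scaffold were open in both libraries, led by Sntb2 (a syntrophin, 9.55 and 4.16) and Plec (plectin, 8.32 and 4.01). Of 5 further genes, 4 were open in both, led by Ufsp1 (11.2 and 5.39) and Prkar1a (6.95 and 4.60), and Scn4a, the sodium channel of the fibre, had no promoter peak in either. Of 10 regulators of receptor genes, 7 were open in both, led by Hdac4 (23.7 and 9.93) and the E protein gene Tcf3 (8.70 and 4.93). The other 3 regulators, Myf5 (0.858), Myf6 (0.831) and Hdac9 (0.847), had a weak peak in replicate 1 alone. Among 11 other nicotinic receptor genes, most of them known from neurons, 2 were open in both, Chrnb2 (3.11 and 2.89) and Chrna7 (3.46 and 2.01), and 6 in neither, among them Chrna10 and Chrna2. Chrna4 (0.658) and Chrna9 (1.14) had a peak in replicate 1 alone, and Chrna5 (0.248) in replicate 2 alone.

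**Figure D5:**
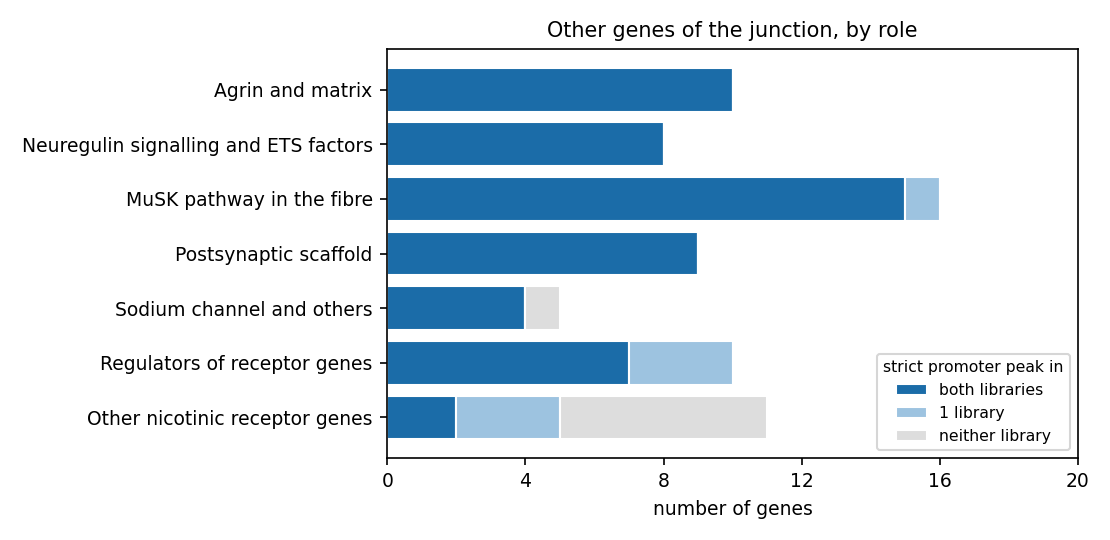
Number of other junction genes in each role (x axis) with a strict promoter peak in both libraries (dark blue), in 1 library (light blue) or in neither (grey). All roles but the other nicotinic receptor genes, with 2 of 11, had most of their genes open in both libraries.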

How the data were processed

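DNase-seq peak lists, footprints and per-base FDR tracks of 2 libraries of gastrocnemius were used as deposited, on build mm10 per the file headers. Each peak has a signal deposited by the authors, derived from the alignment of its own library per the file headers. Their scaling, the aligner and the callers were not given in the sources used here. Each listed base has an FDR, a q-value made by the authors and deposited for bases under 0.05, and the deposited footprints carry a constant threshold of 0.01. Read depth is unknown, so no counting interval is given.

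Promoters reach 1 kb upstream and downstream from every GENCODE M21 start, and a gene counts as open where a strict peak overlaps it in both libraries. Peaks of the 2 libraries were merged where they overlapped by 1 base. Regions outside all promoter windows were assigned within 50 kb of a start. Promoter sequences come from the RefSeq table on GRCm38.p6, the same assembly as mm10, and regions from its genome. Motif letters were searched on both strands. Python 3.11.15, numpy 2.4.6, pandas 2.3.3 and matplotlib 3.10.9 were used, and the counting steps were tested on simulated data. The genes and lists were chosen with earlier results of these data known. From each role the text names up to 2 genes with the highest mean percentile among the open ones and up to 2, in alphabetical order, without a peak, besides the strongest region per gene. Genes with a peak in 1 library and the second regions named were chosen after their values were seen. Alternatives were windows of 250 and 2500 bases, loci of 20 and 100 kb or with the gene body, the permissive list, peaks at or above the median signal, summed signals, a reciprocal overlap of 50%, FDR limits of 0.01 and 0.001, footprints wholly inside a peak, and each library alone.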

Additional observations from a re-analysis of the deposited data

How the results depend on the processing

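The number of the 10 genes open in both libraries stayed between 6 and 10, with Chrnd lost at the median signal limit, and that of the 69 other junction genes between 51 and 61 under the windows, peak lists and signal limit tried. With either library alone they were 8 to 9 and 57 to 60. The 33 shared regions outside promoters became 58 within 100 kb and 55 in the permissive list, 22 within 20 kb, 26 at the median signal limit and 30 at a reciprocal overlap of 50%, and a library alone held 49 to 72. The mean of 62.5 promoter footprints fell to 38 with windows of 250 bases and 40.5 when only footprints wholly inside a strict peak counted, with 54 to 71 in the libraries alone. Chrng minus Chrne in listed promoter bases averaged -117.5 and ranged from -268 in replicate 1 alone to 33 in replicate 2 alone. It was -234.5 within 250 bases, with the same direction in both libraries, and -8.5 within 2500 bases. The log2 ratio of strict Chrng to Chrne signals could not be formed under any window tried, since no library had both peaks. Apart from leaving out a library, 6 of 50 recomputed gene percentiles and 22 of 40 listed-base counts moved beyond the SD over libraries. No paired analysis was possible because the series has 1 group. Read depth is unknown, so its part in the weak sites of 1 library was not tested.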
